A study of Mus musculus with 12 samples.

Results

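Rab proteins are small GTPases that mark the membranes of the vesicle traffic, and the 57 Rab genes described here are those measured on arrays of cultured mouse mast cells. They were taken as every gene whose symbol is Rab followed by a number and at most one letter and one digit, leaving out Rab27a and Rab27b, among 19938 genes with a probe set of their own. The cells were bone marrow derived mast cells, grown from femur and tibia marrow of female mice aged 4 to 6 weeks with stem cell factor and interleukin 3, the growth factors used to raise mast cells. Part of the 2-week cultures of the study went through a CD117 column, and the labels do not say which arrays these are. Groups were ACKR2-/- (D6-/-) cells at 10 weeks of culture, wildtype cells at 10 weeks, ACKR2-/- cells at 2 weeks and wildtype cells at 2 weeks, with 3 arrays each and 12 in all, the strain being given as C57BL/6 for every array. ACKR2 is an atypical chemokine receptor that takes up inflammatory CC chemokines. The labels name neither the allele nor the tissues it covers. Arrays of a group are labelled as biological replicates with no animal or culture named, so p-values measure the spread between these arrays, which may be technical. Values are log2 signals, and a difference of 1 is a doubling.

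A Rab switches between a GDP-bound form held in the cytosol and a GTP-bound form anchored in a membrane by its lipid tail. Exchange factors (GEFs) turn it on, GTPase-activating proteins (GAPs) turn it off, and effectors bound by the active form tether, move or fuse the vesicle. Each Rab has its own membranes, so that the set a cell makes reflects the compartments it runs. Mast cells are filled with secretory granules, lysosome-related organelles that fuse with the surface after the IgE receptor is bound.

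Before the Rab values are given, 4 arrays have to be set apart. The 14 measured mast cell markers averaged 11.85 to 12.47 in all 6 cultures of 10 weeks and on wildtype 2-week arrays 1 and 2. They averaged 6.74, 6.69 and 6.61 on ACKR2-/- 2-week arrays 1, 2 and 3 and 6.70 on wildtype 2-week array 3, with all 14 markers lower on each of these 4 than on each of the other 8. Fcer1a, the alpha chain of the IgE receptor that defines mast cells, was at 5.25, 5.21 and 5.47 on the ACKR2-/- 2-week arrays and at 4.83 on wildtype 2-week array 3, against 13.74 to 14.14 elsewhere, so the labelled cell type is not seen on these arrays. All 9 B cell markers were higher on the 4 arrays than on the 8, and so were 9 of 11 T and NK cell markers. Xist, which coats the inactive X of female cells, read 5.77 to 6.23 on the 4 arrays and at least 13 on the 8, although the label is female throughout. Ackr2 itself read 8.34, 8.16 and 8.25 in ACKR2-/- against 7.88, 8.26 and 8.35 in wildtype cells at 10 weeks, and 8.39, 7.79 and 9.43 against 8.19, 8.29 and 8.38 at 2 weeks, and whether its probe set lies in the deleted part is not given, so it does not check the genotype.

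Rab44 and Rab38 were the Rab genes that differed most between the 8 arrays high in mast cell transcripts and the 4 arrays low in them. On the 8 arrays 23 of 57 Rab genes were higher than on every one of the 4, and 5 were lower, while 29 overlapped. Among all 19938 genes, 15.0% were higher and 11.8% lower in this way. The 8 arrays were told from the 4 by measured markers and not by a label, so this is a description with no test. With median centring of the arrays the Rab counts were 18 and 5, and with quantile normalization 18 and 7. The share of all genes was not counted under these scalings, so a general shift cannot be told apart there. Rab5c, Rab14, Rab8b and Rab40b then overlapped under both, Rab5b and Rab39b under median centring and Rab2a under quantile normalization, while Rab3b was lower under both and Rab43 under quantile normalization. Of the 23, the gap between the lowest of the 8 arrays and the highest of the 4 was at least 1 for Rab44, Rab38, Rab19, Rab37, Rab13 and Rab32, and of the 5 it was so for Rab30. Over all genes, 2.98% had such a gap upwards and 2.11% downwards. Since the RNA came from bulk samples, fewer cells of a type and less RNA per cell cannot be told apart. The 4 arrays also differ from the 8 in Xist and in Kdm5d, a gene of the Y chromosome. Kdm5d read 10.06 to 10.51 on the 4 and 6.04 to 6.42 on the 8. Both genes go against the female label of the 4 arrays. Where their RNA came from was not tested and cannot be told apart from the mast cell level.

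**Figure D1:**
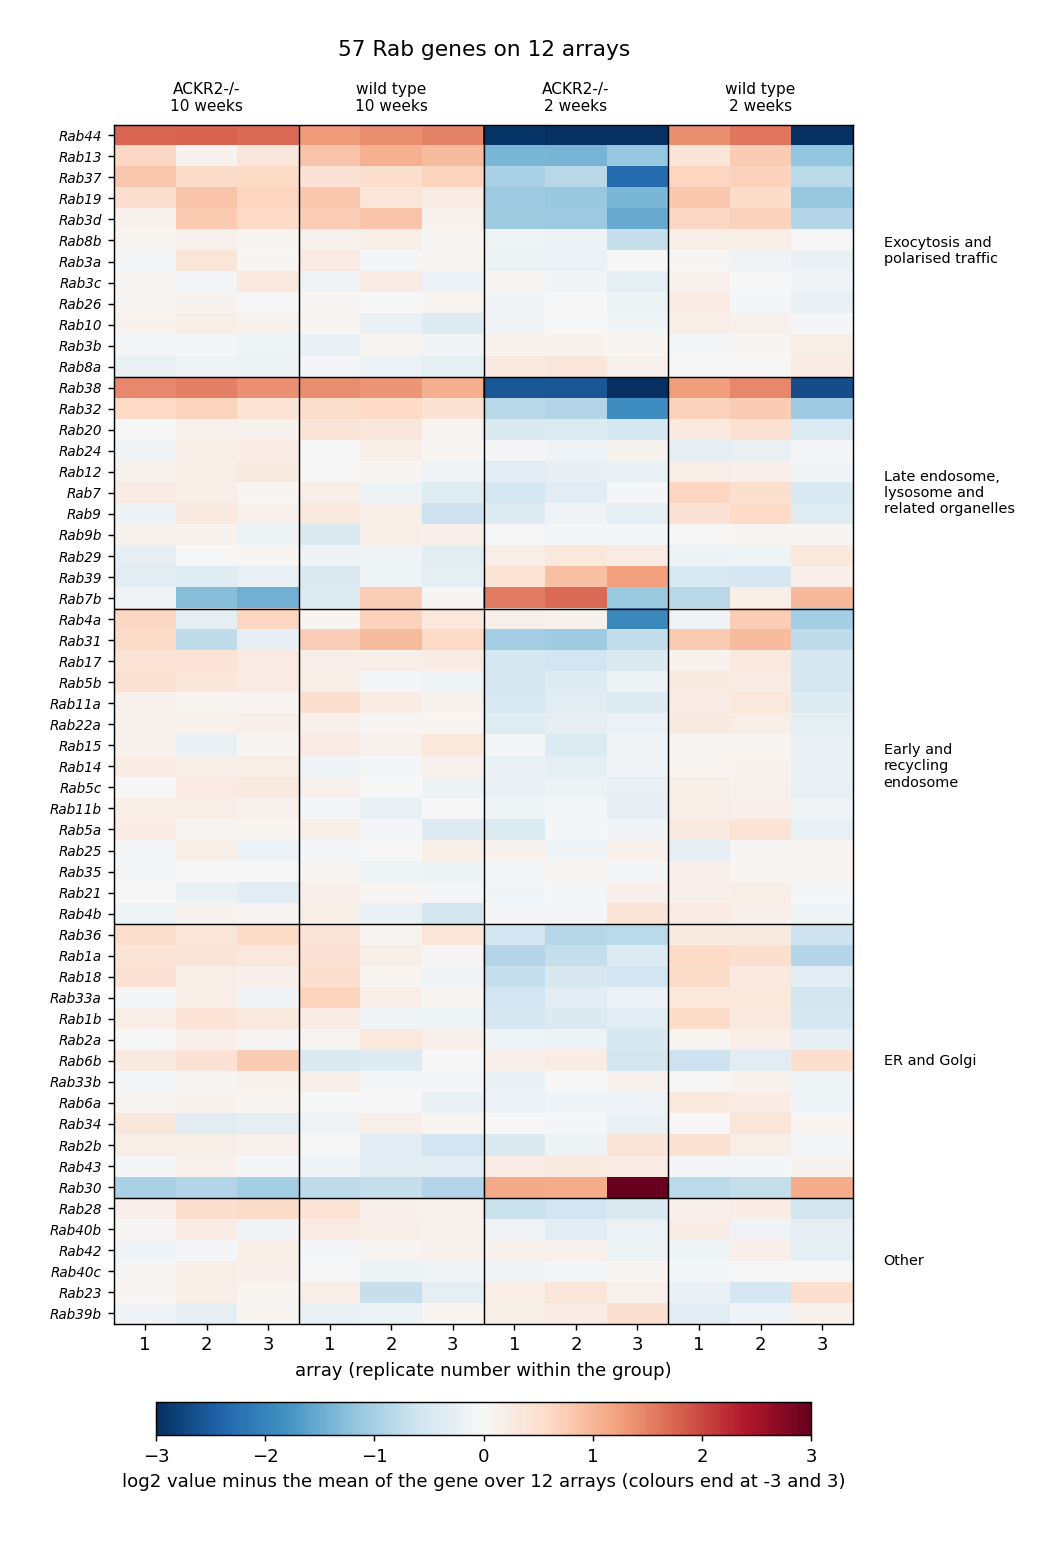
Each row is one of 57 Rab genes and each column one of 12 arrays, in 4 groups of 3, and the colour is the log2 value minus the mean of that gene over the 12 arrays. Rab44 and Rab38 are red on 8 arrays and dark blue on the 3 ACKR2-/- 2-week arrays and on wildtype 2-week array 3, and Rab30 runs the other way.

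Among the Rab genes of exocytosis and traffic to the surface, 6 of 12 were higher on the 8 arrays and 1 was lower. Rab44, an atypical large Rab that takes part in granule release of mouse mast cells, read 12.54, 12.56 and 12.49 in ACKR2-/- cells at 10 weeks and 12.06, 12.18 and 12.29 in wildtype cells at 10 weeks. At 2 weeks it read 7.84, 7.65 and 7.65 in ACKR2-/- cells and 12.18, 12.39 and 7.68 in wildtype cells. The lowest of the 8 arrays was thus 4.23 above the highest of the 4, an 18.8-fold gap.

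Rab37, a Rab of mast cell secretory granules, read 11.80, 11.55 and 11.61 in ACKR2-/- and 11.44, 11.51 and 11.68 in wildtype cells at 10 weeks, then 10.02, 10.18 and 8.70 in ACKR2-/- and 11.64, 11.7 and 10.19 in wildtype cells at 2 weeks. Rab3d, found on secretory granules of mast cells and of exocrine glands, spanned 9.42 to 10.17 on the 8 arrays and 7.81 to 8.44 on the 4, a gap of 0.98. The other Rab3 genes, Rab3a, Rab3b and Rab3c, which act mainly in regulated secretion of nerve and endocrine cells, overlapped between the 8 and the 4 and differed by at most 0.57 over all 12 arrays. Rab3d was set apart under each scaling tried, whereas Rab3b lay lower on the 8 arrays once the arrays were median centred or quantile normalized.

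Rab19 spanned 10.67 to 11.31 on the 8 arrays and 9.08 to 9.37 on the 4. Rab13, which carries cargo to the surface and to cell junctions in epithelia, spanned 8.13 to 9.09 on the 8 and 6.63 to 6.88 on the 4. Their promoters are shown because among the members higher on the 8 arrays they had the widest gaps for which a RefSeq promoter was at hand. Capitals mark the E-box letters CATGTG on either strand, a form bound by MITF, a transcription factor of mast cells. The windows are the 250 bases before the start on the plus strand of GRCm38.p6, chr6:39381103-39381352 for Rab19 and chr3:90213465-90213714 for Rab13, which has a second start with no such letters. The Rab19 window belongs to a start inside the annotated gene, chr6:39380709-39390666, and does not lie before the first base of the gene.
Rab19: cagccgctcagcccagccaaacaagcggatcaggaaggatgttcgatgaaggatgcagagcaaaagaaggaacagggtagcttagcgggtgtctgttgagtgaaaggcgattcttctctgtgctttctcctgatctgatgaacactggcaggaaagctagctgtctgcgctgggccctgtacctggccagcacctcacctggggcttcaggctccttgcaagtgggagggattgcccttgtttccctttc
Rab13: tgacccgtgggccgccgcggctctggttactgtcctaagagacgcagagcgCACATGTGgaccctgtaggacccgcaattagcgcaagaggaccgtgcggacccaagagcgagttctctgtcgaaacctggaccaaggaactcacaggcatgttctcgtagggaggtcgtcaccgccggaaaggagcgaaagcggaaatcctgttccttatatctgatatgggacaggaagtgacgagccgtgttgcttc
In the Rab13 window the letters occur on both strands and overlap, beginning 199 and 197 bases before the start, and the Rab19 window holds none. Promoters were matched for 47 of 57 Rab genes, giving 58 windows. CATGTG in either orientation was in 10.3% of the Rab windows, against 12.3% of 32851 windows of the same length over all genes, and CACGTG in 6.9% against 6.02%. Letters of GATA factors were in 3.45% against 9.99% for AGATAA and in 6.9% against 7.94% for TGATAA, again on either strand. Among the 18 windows of the genes that were higher on the 8 arrays, 3 held CATGTG, 1 CACGTG, none AGATAA and 2 TGATAA.

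Rab8b and Rab8a, a pair that sends vesicles from the Golgi and recycling endosomes to the surface, lay on opposite sides. Rab8b spanned 11.82 to 11.96 on the 8 arrays and 11.06 to 11.76 on the 4. Rab8a spanned 11.32 to 11.63 on the 8 and 11.76 to 11.96 on the 4. The gaps were 0.06 and 0.13, and the one of Rab8b closed under both other scalings. Rab10, which acts on a similar route, and Rab26, of granule maturation, overlapped.

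**Figure D2:**
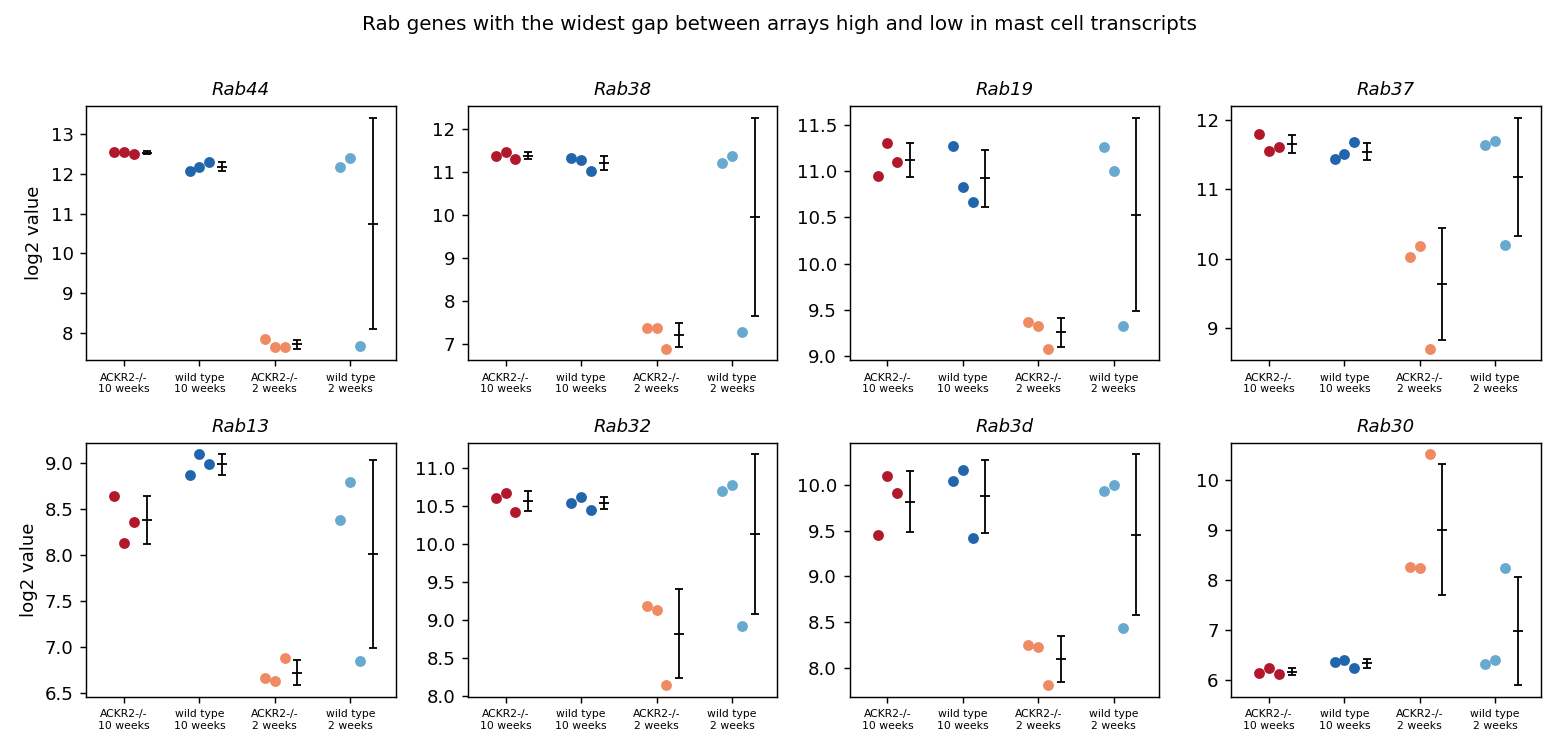
Log2 value of 8 Rab genes on every array, with points for the 3 arrays of each group and, to their right, the group mean with its SD. Wildtype 2-week array 3 lies with the ACKR2-/- 2-week arrays in every panel, and for Rab30 ACKR2-/- 2-week array 3 is above all the others at 10.52.

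Among the Rab genes of late endosomes, lysosomes and related organelles, Rab38 and Rab32 were set apart furthest. Both deliver enzymes to lysosome-related organelles such as the melanosome, and Rab38 is the gene mutated in the chocolate coat colour mouse. Rab38 read 11.38, 11.46 and 11.31 in ACKR2-/- and 11.33, 11.27 and 11.02 in wildtype cells at 10 weeks, then 7.37, 7.37 and 6.88 in ACKR2-/- and 11.20, 11.37 and 7.28 in wildtype cells at 2 weeks. Rab32 spanned 10.42 to 10.77 on the 8 arrays and 8.14 to 9.18 on the 4. The gap was 3.65 for Rab38 and 1.24 for Rab32.

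Rab20, which acts in phagosome maturation, was the third of 11 in this class to be higher, at 9.06 to 9.52 on the 8 arrays and 8.55 to 8.66 on the 4. Rab39, of phagosomes and autophagy, was lower on the 8 at 5.70 to 6.06, against 6.36 to 7.44 on the 4. Rab29, which recruits the kinase LRRK2 to membranes, was lower too at 9.13 to 9.53, against 9.68 to 9.78. Rab7, which drives fusion of late endosomes with lysosomes, overlapped at 11.33 to 12.34 on the 8 arrays and 11.16 to 11.66 on the 4. Rab9 and Rab9b, of traffic from late endosomes to the Golgi, Rab12, Rab24 of autophagy and Rab7b also overlapped.

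Of 15 Rab genes of early and recycling endosomes, 6 were higher on the 8 arrays and none was lower, with gaps of 0.01 to 0.54. Rab17, a Rab of epithelial recycling, had the widest, at 7.81 to 8.13 on the 8 arrays and 7.14 to 7.28 on the 4. Rab11a, of slow recycling, followed at 10.44 to 10.87 on the 8 and 9.93 to 10.07 on the 4. Rab22a, Rab5b, Rab5c and Rab14 completed the set, while Rab4a, Rab4b, Rab5a, Rab11b, Rab15, Rab21, Rab25, Rab31 and Rab35 overlapped. Rab35, which returns cargo from endosomes to the surface, varied least, by 0.32 over all 12 arrays.

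Of 13 Rab genes of the ER and Golgi, 6 were higher on the 8 arrays and Rab30 was lower. Rab36 spanned 8.0 to 8.48 on the 8 arrays and 7.06 to 7.34 on the 4. Rab1a, which directs vesicles from the ER to the Golgi, spanned 11.89 to 12.46 on the 8 and 10.97 to 11.45 on the 4. Its relative Rab1b spanned 11.56 to 12.23 on the 8 and 11.16 to 11.37 on the 4. Rab18 of the ER and lipid droplets, Rab2a and Rab33a were higher by gaps of 0.11 to 0.24. Rab2b, Rab6a, Rab6b, Rab33b, Rab34 and Rab43 overlapped. Among the remaining 6 genes, Rab28, of cilia in photoreceptors, and Rab40b were higher, by gaps of 0.55 and 0.01, Rab39b was lower by a gap of 0.04, and Rab23, an inhibitor of hedgehog signalling, Rab40c and Rab42 overlapped. Of the 4 X-linked members Rab33a was higher on the 8 arrays, Rab39b lower, and Rab9 and Rab9b overlapped.

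Rab30, a Golgi Rab, had the largest range among the members that were lower on the 8 arrays. It read 6.15, 6.25 and 6.12 in ACKR2-/- and 6.36, 6.41 and 6.25 in wildtype cells at 10 weeks. At 2 weeks it read 8.26, 8.25 and 10.52 in ACKR2-/- cells and 6.32, 6.41 and 8.24 in wildtype cells. ACKR2-/- 2-week array 3, with the highest value, was also apart from the other 3 low arrays in lymphocyte transcripts: 9 B cell markers averaged 12.60 on it and 9.71 to 9.95 on the other 3, and 11 T and NK cell markers averaged 8.61 on it and 11.50 to 11.58 on the other 3. Rab7b, Rab37, Rab4a, Rab32, Rab6b and Rab8b were at least 0.5 lower on that array than on the nearest of the other 3. Rab7b read 6.45 on it and 8.55 to 9.28 on the other 3, and Rab4a, of fast recycling, 7.24 on it and 8.16 to 9.32 on the other 3. The part of these cell types in the Rab values was not tested.

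Between 10 and 2 weeks in ACKR2-/- cells, 14 of 57 Rab genes rose and 3 fell, and 40 did not pass the threshold. Over all genes 10.5% were called higher and 6.33% lower, against 24.6% and 5.26% of the Rab genes. The test was limma, fitted to all 12 arrays with 1 mean per group, with Benjamini-Hochberg adjustment over 19938 genes and calls at an adjusted p under 0.05. The ACKR2-/- 2-week arrays are 3 of the 4 arrays low in mast cell transcripts and Xist, so culture time cannot be told apart here from what else sets them apart. The median difference was 0.31 for the Rab genes and 0.06 for all genes, and 50.9% of the Rab genes had an unadjusted p under 0.05, against 30.2% of all genes.

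The 5 exocytosis genes that rose were Rab44, Rab37, Rab19, Rab3d and Rab13. Rab44 averaged 12.53 at 10 weeks and 7.71 at 2 weeks, and differed by 4.82 ± 0.96 (SE, n = 3 arrays each), at an adjusted p of 0.014 by limma. The SEs here draw on the spread within all 4 groups and not only within those compared. For Rab44 the SD was 0.04 and 0.11 in ACKR2-/- cells at 10 and 2 weeks, and 2.66 in wildtype cells at 2 weeks. Rab37 rose by 2.02 ± 0.44, Rab19 by 1.86 ± 0.41, Rab3d by 1.72 ± 0.39 and Rab13 by 1.65 ± 0.39. Rab8a fell by 0.41 with an SE of 0.11, averaging 11.46 at 10 weeks and 11.87 at 2 weeks.

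Of the late endosome and lysosome class, Rab38 rose by 4.17 ± 0.84, Rab32 by 1.75 ± 0.44 and Rab12 by 0.45 ± 0.11, while Rab39 averaged 5.90 at 10 weeks and 7.05 at 2 weeks, a difference of -1.15 ± 0.22. Rab7b had the second largest decrease, -1.66 ± 0.74, and did not pass (limma adjusted p = 0.161). Of the early and recycling endosome class, Rab17 rose by 0.87 ± 0.17, Rab5b, a Rab of early endosomes, by 0.69 ± 0.20 and Rab14, of traffic between Golgi and endosomes, by 0.40 ± 0.11. Of the ER and Golgi class, Rab36 rose by 1.23 ± 0.22 and Rab18 by 0.84 ± 0.22, and Rab30 averaged 6.17 at 10 weeks and 9.01 at 2 weeks, a difference of -2.83 ± 0.61. Rab28 rose by 0.95 ± 0.20. Rab1a, at 1.04 ± 0.33, missed the threshold with a limma adjusted p of 0.0528.

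In 30 Rab genes the 3 arrays of 10 weeks lay above the 3 of 2 weeks and in 7 below, where 26.7% and 17.7% of all genes lay so, and all 17 called genes were among these. The limma adjusted p of the 17 ran between 0.0137 and 0.0392. Of the 14 that rose, 13 were also among the 23 higher on the 8 arrays, Rab12 being the one that was not, and the 3 that fell were among the 5 that were lower. The ACKR2-/- arrays enter both comparisons on the same sides, so this overlap is largely built in and is no separate evidence. In the fit to all groups the count rested on single arrays. It was 0 without ACKR2-/- 10-week array 2 and 0 without array 3, as over all genes. The lowest limma adjusted p of a Rab gene was then 0.0555 and 0.0584. The count was 11 without ACKR2-/- 10-week array 1, where 13% of all genes were called, 11 without ACKR2-/- 2-week array 1 (7.59% of all genes) and 10 without ACKR2-/- 2-week array 2 (6.98%). Without wildtype 2-week array 3 it was 24, against 25% of all genes. Fitted to the ACKR2-/- groups alone it was also 24, against 25.1% of all genes, and these held all 17. The difference of Rab44 stayed between 4.73 and 4.88 over the 20 alternative settings and that of Rab38 between 4.01 and 4.26.

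**Figure D3:**
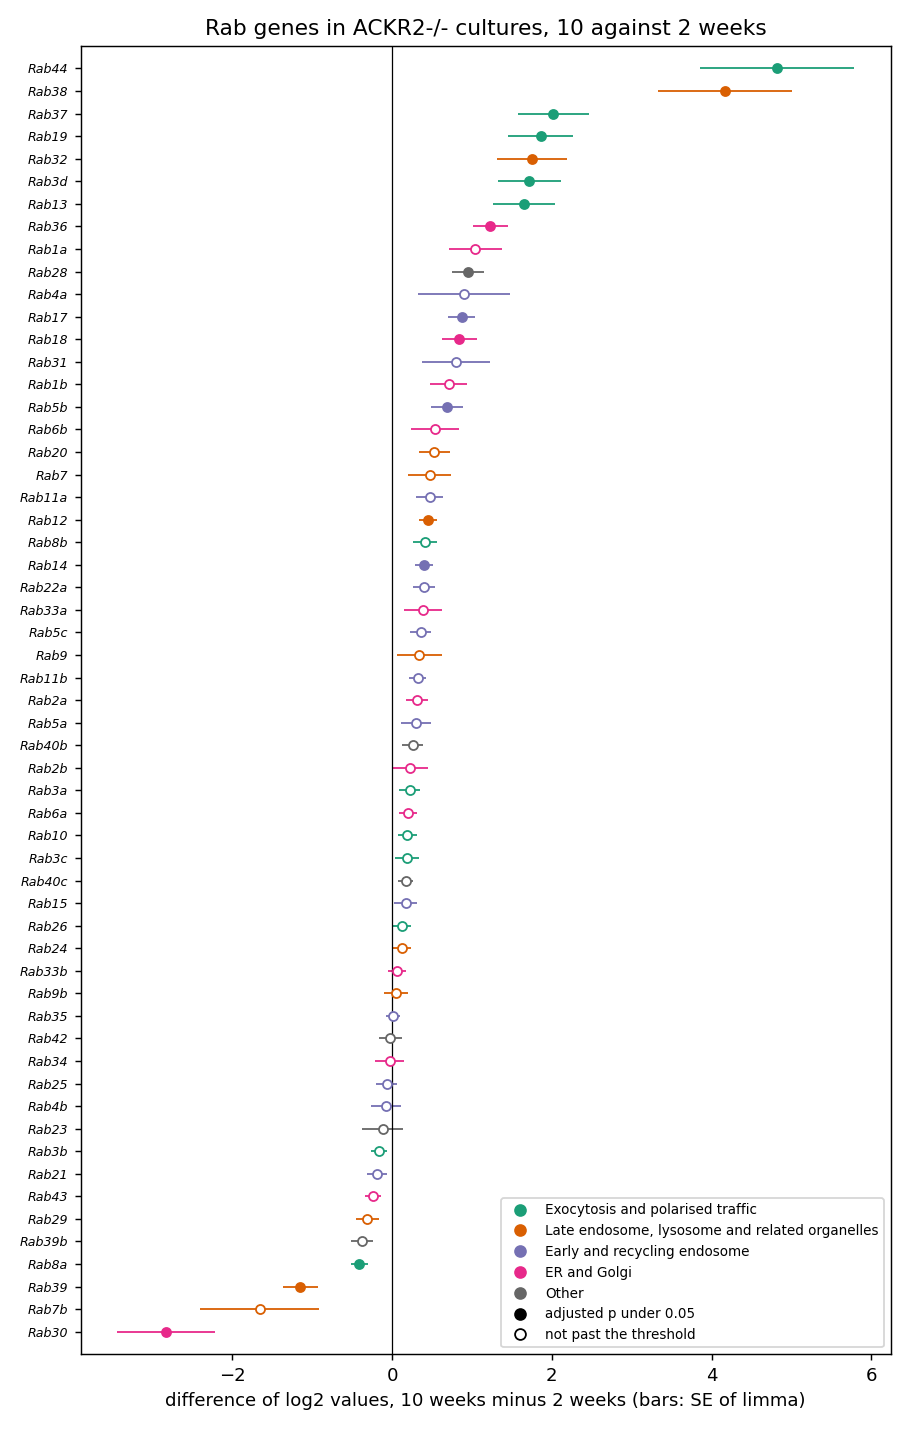
Difference of log2 values between 10 and 2 weeks in ACKR2-/- cells for 57 Rab genes, with the SE of limma as bars and the class as colour. Filled points, 14 to the right of 0 and 3 to the left, passed the threshold, with Rab44 and Rab38 furthest right at 4.82 and 4.17 and Rab30 furthest left at -2.83.

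Genes that load, switch and read Rabs were set beside them as a list of 110 measured genes. Between 10 and 2 weeks in ACKR2-/- cells 22 rose and 11 fell, or 20.0% and 10.0%, against 10.5% and 6.33% of all genes, with a median difference of 0.08. Of 34 GAPs, 7 rose and 4 fell. Tbc1d9 (-2.67 ± 0.57), Rabgap1l (-2.12 ± 0.46) and Usp6nl (-1.87 ± 0.41), a GAP of early endosomes, had the largest decreases, and Tbc1d24 (1.85 ± 0.37) the largest increase. Of 30 GEFs, 7 rose and 6 fell, with Dennd2d at -3.64 ± 0.74, Dennd5b at -2.39 ± 0.71, Rab3ip, an exchange factor for the Rab8 pair, at -2.11 ± 0.50 and Dennd4c at 1.37 ± 0.25.

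Of 39 effectors, 7 rose and 1 fell. Sytl3, a synaptotagmin-like protein that binds the granule Rabs of the Rab27 pair, differed by 2.18 ± 0.53, and Micall2, which binds Rab13, by 1.34 ± 0.30. Rabep1 and Eea1, which read Rab5 on early endosomes, differed by 1.27 ± 0.33 and 1.19 ± 0.30. Of 7 genes that carry or lipid-tag Rabs, Rabac1, which binds lipid-tagged Rabs, was the one that changed, at 0.65 ± 0.17. Chosen after their values were seen, the partners of Rab32 and Rab38 are also given. Hps4, a subunit of their exchange factor, differed by 0.72 ± 0.19 and Ankrd27, which binds them and links them to Rab21, by 1.02 ± 0.20. Hps1, the other subunit, was at 0.15 ± 0.10 and did not pass (limma adjusted p = 0.354). The limma adjusted p of the other named partners lay between 0.0137 and 0.0424.

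At 10 weeks, where all 6 arrays were high in mast cell markers, no Rab gene passed the threshold between ACKR2-/- and wildtype cells. Limma called 0 of 57 and 0.0% of all genes. At an unadjusted p under 0.05 there were 5 Rab genes, or 8.77%, against 7.85% of all genes. All 3 ACKR2-/- arrays were above all 3 wildtype arrays for 12 Rab genes and below them for 3, where 8.61% and 5.98% of all genes lay so. The median difference was 0.08, with 38 of 57 above 0, against 0.01 over all genes, with 10290 of 19938 above 0. Without the 4 low arrays, a choice made after seeing the data, 0 Rab genes and 0 of all genes passed, and the lowest limma adjusted p of a Rab gene was 0.236. In that fit 10 Rab genes (17.5%) had an unadjusted p under 0.05, against 12.9% of all genes.

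Rab6b, of transport from the Golgi back to the ER, had the largest positive difference. It read 9.67, 9.84 and 10.17 in ACKR2-/- against 8.98, 9.01 and 9.41 in wildtype cells, so that the groups did not overlap, and differed by 0.75 ± 0.30 (limma adjusted p = 0.582). Rab2b, of the Golgi, read 8.75, 8.73 and 8.68 against 8.57, 8.21 and 7.97, a difference of 0.47 ± 0.22. Rab23, Rab44, Rab5b and Rab10 followed at 0.36 ± 0.26, 0.35 ± 0.96, 0.34 ± 0.20 and 0.31 ± 0.12, and apart from Rab23 their arrays did not overlap. The error of Rab44 includes the wildtype 2-week arrays, which lay on both sides, and was 0.11 without the 4 low arrays (adjusted p = 0.28).

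Rab7b and Rab31 had the largest negative differences. Rab7b, of traffic from endosomes to the Golgi, read 7.46, 6.30 and 6.13 in ACKR2-/- against 7.16, 8.32 and 7.60 in wildtype cells, and differed by -1.06 ± 0.74. Rab31, of traffic between Golgi and endosomes, read 10.20, 8.86 and 9.37 against 10.37, 10.57 and 10.21, and differed by -0.90 ± 0.43. In both the low values were those of ACKR2-/- arrays 2 and 3, while array 1 was within 0.01 of the wildtype range or inside it.

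The same 2 arrays were low in 10 monocyte and macrophage markers, which averaged 10.06, 7.61 and 7.96 in ACKR2-/- against 9.46, 10.60 and 10.14 in wildtype cells. Basophil markers, 4 in all, went the same way at 10.91, 8.94 and 8.89 against 11.55, 11.47 and 11.26. The 12 neutrophil markers averaged 7.66, 6.87 and 6.69 in ACKR2-/- against 9.01, 10.02 and 8.15 in wildtype cells, lower on all 3 arrays. The part of these cells in the Rab values was not tested. Rab13 differed by -0.60 ± 0.39 with no overlap, reading 8.64, 8.13 and 8.36 against 8.87, 9.09 and 8.98. Rab33a, Rab15 and Rab21 were lower by less, at -0.28 ± 0.24, -0.24 ± 0.14 and -0.24 ± 0.12. None of these passed, with limma adjusted p between 0.655 and 0.868. Of the list of Rab partners 0 of 110 passed. Rab3il1, an exchange factor for Rab8, had the lowest p at -0.74 ± 0.22, and Rilpl2 differed by -0.48 ± 0.16, Tbc1d16 by -0.43 ± 0.17 and Chm, which escorts new Rabs to their lipid transferase, by 0.47 ± 0.19.

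**Figure D4:**
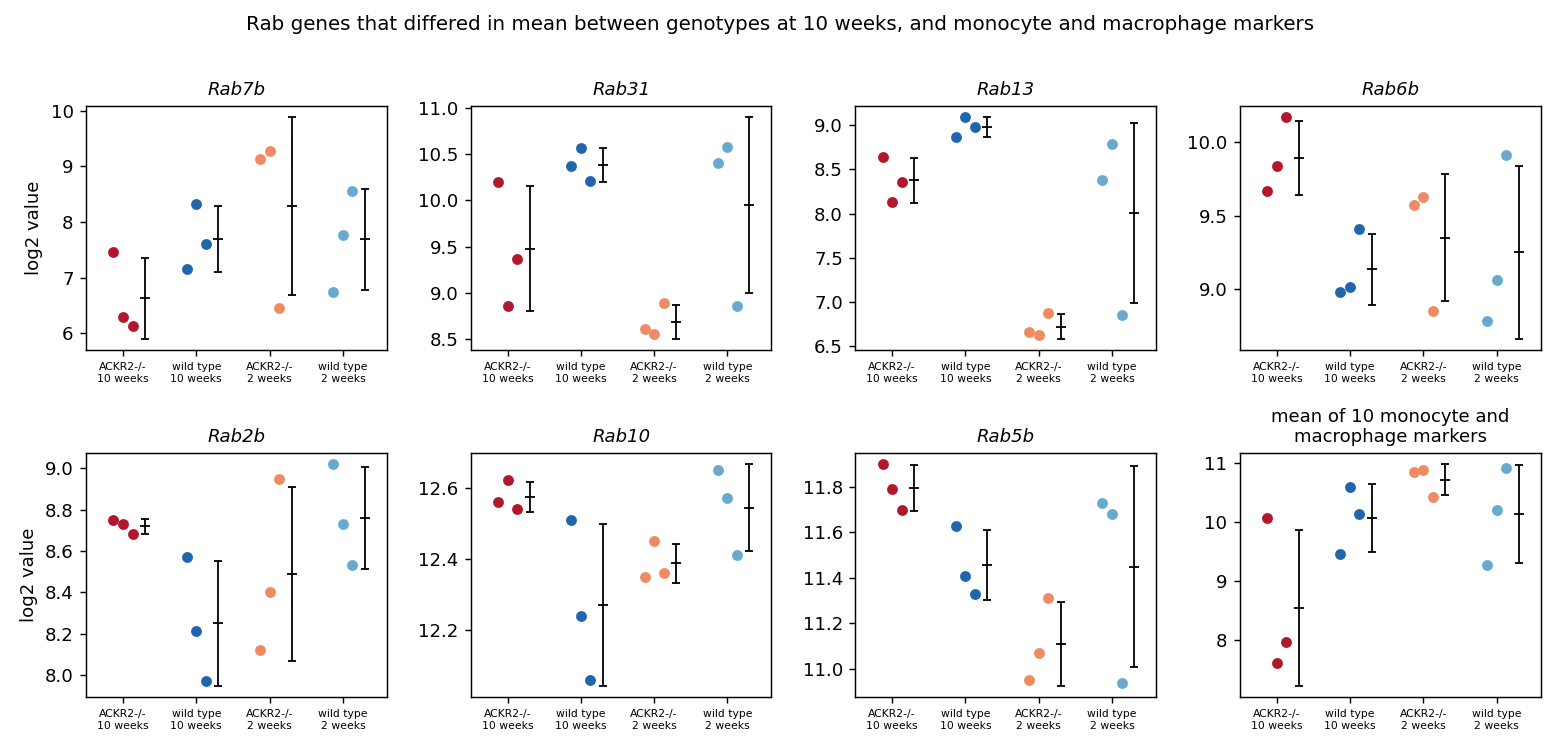
Log2 value of 7 Rab genes and the mean of 10 monocyte and macrophage markers on every array, with points for arrays and, to their right, the group mean with its SD. At 10 weeks the 3 ACKR2-/- arrays lie above the 3 wildtype arrays for Rab6b, Rab2b, Rab10 and Rab5b and below them for Rab13 and Rab31, and for Rab7b and the markers ACKR2-/- arrays 2 and 3 are the lowest.

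At 2 weeks, limma called 0 of 57 Rab genes between ACKR2-/- and wildtype cells, and 0.0% of all genes. At an unadjusted p under 0.05 there were 23 Rab genes, or 40.4%, against 17.5% of all genes, and the lowest adjusted p was 0.225. Rab44 differed by -3.04 ± 0.96, Rab38 by -2.74 ± 0.84, Rab37 by -1.54 ± 0.44, Rab3d by -1.36 ± 0.39, Rab32 by -1.32 ± 0.44 and Rab13 by -1.28 ± 0.39. In the other direction Rab30 differed by 2.02 ± 0.61, Rab39 by 1.12 ± 0.22, Rab7b by 0.60 ± 0.74, Rab39b by 0.39 ± 0.14, Rab23 by 0.29 ± 0.26 and Rab29 by 0.25 ± 0.14. Of these, Rab37, Rab3d, Rab30, Rab39 and Rab39b had arrays that did not overlap between the genotypes. In each of them wildtype array 3 was the wildtype array nearest to the ACKR2-/- arrays. For Rab37 it read 10.19 against 10.18 on the highest ACKR2-/- array, and for Rab30 8.24 against 8.25 on the lowest. For Rab39b it read 6.98 against 7.05, for Rab3d 8.44 against 8.25 and for Rab39 6.36 against 6.62. In all, 4 Rab genes lay above and 5 below, against 4.97% and 8.6% of all genes.

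The 2-week comparison turned on wildtype array 3. Without it limma called 28 Rab genes, 4 higher and 24 lower in ACKR2-/- cells, against 10.2% and 13.5% of all genes. Rab44 then differed by -4.57 ± 0.12 and Rab38 by -4.08 ± 0.17. That fit sets 3 ACKR2-/- arrays low in mast cell transcripts against 2 wildtype arrays high in them, so that genotype and this difference cannot be told apart. The genotype by week interaction gave 0 calls among the 57 Rab genes and 0.0% of all genes, with 19 Rab genes (33.3%) at an unadjusted p under 0.05 against 11.4% of all genes. Rab44 had the largest interaction, 3.39 ± 1.35, and Rab30 the most negative, -2.18 ± 0.87. It too turned on wildtype 2-week array 3, without which 23 Rab genes passed, against 15.7% of all genes.

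Between 10 and 2 weeks in wildtype cells limma called 0 of 57 Rab genes and 0.0% of all genes, with 5 Rab genes at an unadjusted p under 0.05, or 8.77%, against 6.65% of all genes. The arrays of 10 weeks lay above those of 2 weeks for Rab13, Rab15 and Rab24 and below them for Rab43 and Rab8a, where 5.29% and 3.45% of all genes lay so. Rab44 (1.43 ± 0.96) and Rab38 (1.26 ± 0.84) had the largest positive differences, and both came from array 3, since without it they were -0.10 and -0.08. Rab13 differed by 0.97 ± 0.39, and by 0.39 ± 0.18 without the low arrays. Rab30 (-0.65 ± 0.61) and Rab2b (-0.51 ± 0.22) had the most negative differences.

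Without the 4 low arrays, this comparison sets 3 wildtype arrays of 10 weeks against 2 of 2 weeks, all high in mast cell markers. Of 57 Rab genes 40 were then below 0, with a median of -0.08, against a median of -0.0 over all genes. The share of all genes below 0 was not counted in this fit. At an unadjusted p under 0.05 there were 9 Rab genes (15.8%), against 7.14% of all genes. The 3 arrays of 10 weeks were below both of 2 weeks for 15 Rab genes and above both for 4, where 9.74% and 10.2% of all genes lay so. Rab7 had the lowest p and read 11.89, 11.53 and 11.33 at 10 weeks and 12.34 and 12.17 at 2 weeks, a difference of -0.67 ± 0.17 (adjusted p = 0.513). Rab2b differed by -0.63 ± 0.18. The next were named after their values were seen. Rab6a of the Golgi differed by -0.32 ± 0.11, Rab1b by -0.42 ± 0.15 and Rab5a of early endosomes by -0.44 ± 0.17, while Rab24 differed by 0.33 ± 0.13. None passed, and Rab44 was at -0.10 ± 0.12.

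For 3 Rab genes a second probe set allowed a check. The second probe set of Rab5b differed by 0.63 between 10 and 2 weeks in ACKR2-/- cells, against 0.69 for the one used, and both lay above on the 8 arrays. For Rab2a both differed by 0.31, yet only the one used was without overlap between the 8 and the 4. For Rab11b the second differed by -0.01 against 0.32, and at 10 weeks the genotypes differed by -0.24 in the second and 0.27 in the one used, so the direction of Rab11b is not settled. Among the Rab genes the probe set numbers run in blocks by chromosome. The ones used for Rab5b, Rab2a and Rab11b break this order, while their second ones keep it. Whether the ones used lie in these genes was not checked. Rab paralogs are alike in sequence, and signal of a close copy in a probe set cannot be seen in such values.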

How the data were processed

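Total RNA of 12 cultures, 250 ng each, was labelled with a whole-transcript kit and hybridised to 1 single-colour array per sample, per the labels' protocols. The submitters' processing notes name Partek 6.5 and RMA, and the authors' deposited values are log2 signals on the scale RMA gives, 1 per probe set after background correction and quantile normalization. Array medians lay between 7.76 and 7.90. No detection calls or scan batches were used. No genome build is given for the deposited values in the sources used here, and GRCm38.p6 served only for gene and promoter positions. The number of arrays limits the precision.

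Of 35399 probe sets, 21789 had 1 gene symbol. Where a gene had several, the one with the highest 12-array mean was kept. Groups came from the sample titles. Limma 3.58.1 in R 4.3.3 was fitted with 1 mean per group, 8 residual and 2.39 prior degrees of freedom, and Benjamini-Hochberg adjustment over 19938 genes. It was tested on simulated data. Contrasts were the genotypes at each week, the weeks in each genotype and the interaction. Errors are limma's SEs.

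The Rab genes, their classes, the list of 110 partners and the markers were chosen with earlier results of these data known. Named were all called Rab genes, the 6 largest differences in each direction per contrast, the highest and lowest mean of each class, and genes with a gap of at least 1 between arrays high and low in mast cell markers, split at the midpoint of the marker mean. For the interaction and for the weeks in wildtype cells, differences of the main fit are given only for the largest of these. Of each partner list, up to 4 called members were named by size, or those with the lowest p. Same-numbered wildtype arrays deviated together over genes between 10 and 2 weeks (r = 0.359, 0.203 and 0.166), and no other pair of groups had all 3 correlations over 0.1. Alternatives covered scaling, array weights, variance moderation, a filter on means under 6, the groups fitted, probe set choice, a replicate block and leaving out each array.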

Additional observations from a re-analysis of the deposited data

How the results depend on the processing

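The number of Rab genes past the threshold kept within 1.5 times of its value under most alternatives, which means 0 again where it was 0. Between 10 and 2 weeks in ACKR2-/- cells, where it was 17, it fell to 0, 10 or 11 without some single arrays. With array weights it was 40 between genotypes at 2 weeks, 44 between 10 and 2 weeks in ACKR2-/- cells and 28 for the interaction, where 46.1%, 47.9% and 20.7% of all genes passed, against 0, 17 and 0 Rab genes without weights. The estimation of the weights stopped before it converged, so values with array weights are uncertain. Leaving out single arrays gave between 0 and 28 at 2 weeks, between 0 and 24 between 10 and 2 weeks in ACKR2-/- cells, between 0 and 23 for the interaction, and 0 throughout for the genotypes at 10 weeks and the weeks in wildtype cells. The count of Rab genes without overlap between the 8 and the 4 arrays was between 28 and 33 without single arrays, and the share of all genes was not counted there. With the replicate number as a block, 15 Rab genes passed between 10 and 2 weeks in ACKR2-/- cells, against 14.5% of all genes. Of these 15, 14 were shared with the 17. In the other comparisons 0 passed, as over all genes, also when the wildtype arrays were fitted alone. Among the Rab genes named for a comparison, the signs that turned were those between 10 and 2 weeks in wildtype cells given here. With array weights Rab31 was at -0.21, Rab38 at -0.06, Rab3d at -0.32 and Rab4a at -0.15. Without the 4 low arrays Rab31 was at -0.11, Rab38 at -0.08, Rab3d at -0.09 and Rab44 at -0.10. Leaving out single arrays, these spanned -0.11 to 0.75 for Rab31, -0.08 to 1.97 for Rab38, -0.09 to 0.69 for Rab3d, -0.10 to 2.25 for Rab44 and -0.57 to 0.00 for Rab9. The cause was not tested. Signal over background could not be examined, which limits what low values show.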
